A study of Mus musculus with 6 samples.

Results

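Motile cilia are the beating hairs that ependymal cells carry on the walls of the brain ventricles. To find their transcripts in the cerebellum of mice fed different amounts of manganese (Mn), protein-coding genes were taken by name from the expression table. The names were those of the cilia and flagella associated proteins (Cfap), axonemal dynein heavy chains (Dnah), dynein assembly factors (Dnaaf), radial spoke head proteins (Rsph), tektins (Tekt) and dynein regulatory complex subunits (Drc), with Foxj1, Mcidas, Ccdc39, Ccdc40, Ccdc153 and Tmem212. This gave 67 of the 53715 mouse genes in the table, chosen by name and not by their values or by the cells that express them. Of these, 66 had a count in at least 1 library, and 55 had enough counts to be tested.

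RNA-seq was done on cerebella of male C57BL/6 mice, 1 library per mouse, from 3 mice on a low-Mn diet (labelled 0 ppm Mn) and 3 mice on a normal-Mn diet (35 ppm Mn) that had been fed for 2 weeks. The mice carried no transgene or deletion named in the labels, and were 4 weeks old at purchase, although the labels call them adult. A figure legend of the study names the triplicates technical, while its methods give 3 mice per group, and if the former holds, p-values reflect no more than the spread of these libraries. The whole cerebellum was used, in which ependymal cells are a small minority, and in such bulk RNA fewer ciliated cells and less RNA per cell cannot be told apart. The libraries held from 14548336 to 21277469 expected counts, and each of the 3 low-Mn libraries held fewer than each normal-Mn library. Levels are given as CPM (counts scaled to a common library size) after TMM scaling, and where genes are compared with each other as CPM per kb of merged exon.

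The shaft of a motile cilium, the axoneme, is a ring of microtubule doublets around a central pair. Outer and inner dynein arms on the doublets make them slide, nexin links hold neighbouring doublets together and turn sliding into bending, and radial spokes pass signals from the central apparatus to the arms. The arms are put together in the cytoplasm by assembly factors before they enter the cilium. In multiciliated cells the program is switched on by Mcidas and its partners, which act upstream of the forkhead factor Foxj1 and the RFX factors. Ependymal cilia move cerebrospinal fluid along the ventricle walls, and the fourth ventricle lies directly under the cerebellum.

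None of the 55 tested motile cilia genes passed the test between the diets, yet some axonemal genes had lower values in every low-Mn library than in any normal-Mn library. The radial spoke gene Rsph4a had 0.531 of its normal-Mn level, the central apparatus gene Cfap54 had 0.640, and Cfap206 had 0.514. Foxj1, the factor that drives these genes, and the ependymal markers Ccdc153 and Tmem212 overlapped between the diets. The genes of the set with the most counts, among them Dnah11, Cfap36 and Cfap20, differed little, and which cells their RNA came from was not tested.

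In edgeR's quasi-likelihood test with Benjamini-Hochberg adjustment over 16123 genes, 0 of 55 tested members had an adjusted p under 0.05, against 0.595% of all tested genes (0.18% lower and 0.416% higher). At an unadjusted p under 0.05, 13 members were lower with low Mn and 0 were higher, where 5.58% of all tested genes were lower and 6.54% higher. DESeq2 also called 0 members and placed 7 lower at an unadjusted p under 0.05, but its own filter gave adjusted p-values to 11 of the tested members, and Rsph4a, Cfap206, Cfap54 and Drc7 were not among them. Limma-voom called 0, with 12 lower at an unadjusted p under 0.05. All 3 low-Mn libraries lay below all 3 normal-Mn libraries for 15 of the 55 tested members, where 8.32% of all tested genes did so, and above them for 0, where 8.79% did. In total 38 of the tested members had a log2 fold change below 0 (50.8% of all tested genes did), and their median was -0.23 against 0.00 over all tested genes. Among the 55, 2 members reached the filter level of 0.562 CPM in every normal-Mn library but not in every low-Mn library, and 0 did the reverse. Over the 52 members that reached it in all 6 libraries, 12 were lower at an unadjusted p under 0.05 and 13 did not overlap.

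**Figure D1:**
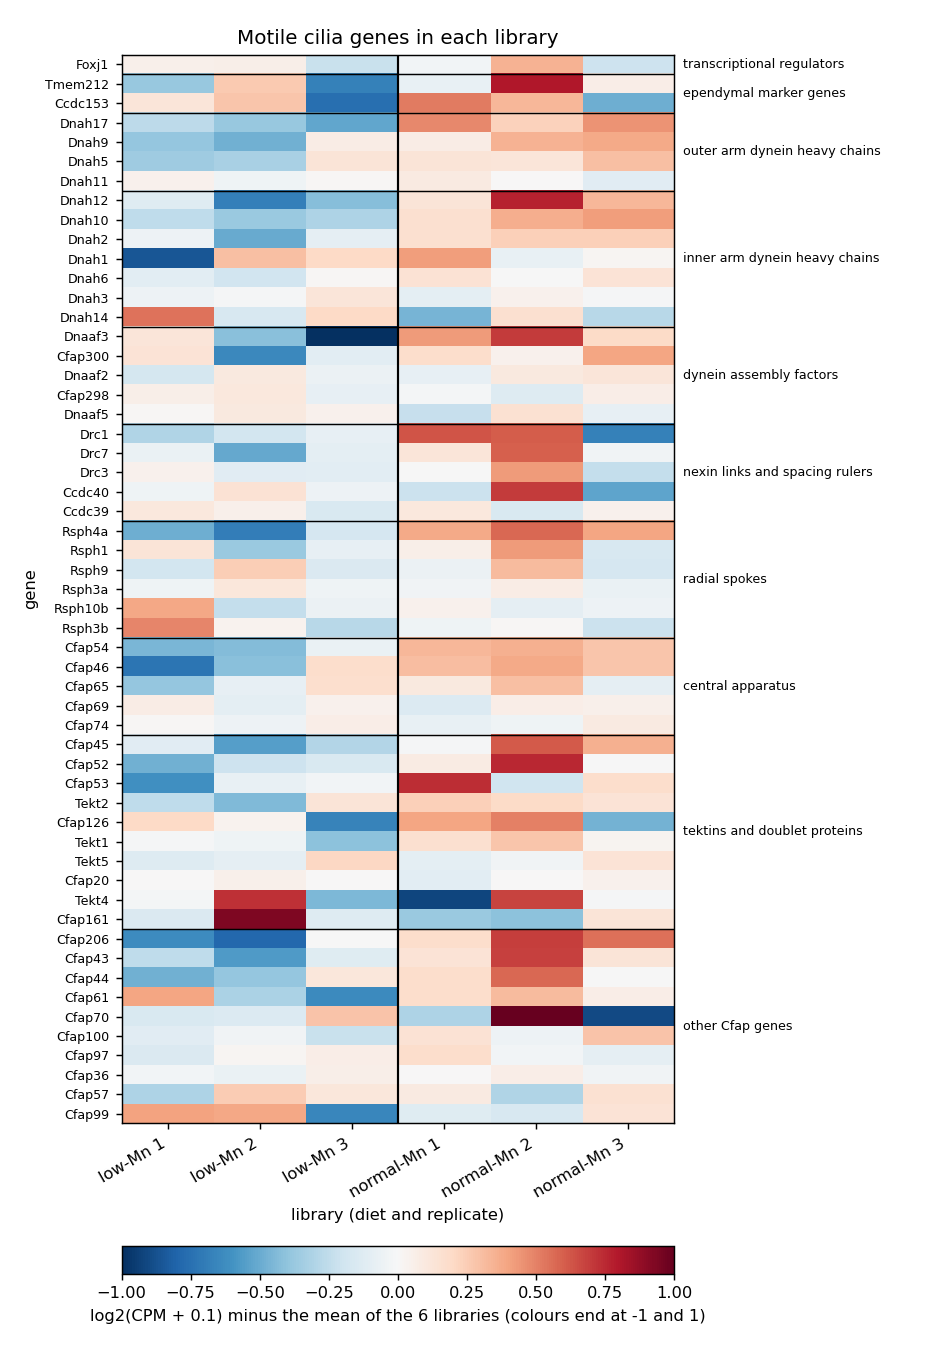
Each row is 1 of the 55 tested motile cilia genes and each column 1 library, with the colour giving log2(CPM + 0.1) minus the gene's mean over the 6 libraries and black lines separating roles and diets. Blue (lower) cells gather in the low-Mn columns for Rsph4a, Cfap206, Cfap54, Dnah10 and Dnah17, while Foxj1, Dnah11, Cfap36 and Cfap20 are pale throughout and normal-Mn replicate 2 is the reddest column.

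Because RFX factors and Foxj1 are the known switches of these genes, promoters of the members were read for their motifs. RefSeq (GRCm38.p6) gave 61 promoters for 54 of the 67 members, each running from 250 bases before to 50 bases after the start. The RFX core GTTGCC, searched on both strands, was found in 34.4% of member promoters and in 12.5% of all 32851 promoters. It was in 48.6% of the promoters of the other motile cilia genes, 39.4% of those of the transport genes and 43.8% of those of the regulators. Among the lists of other cells it was in 18.2% of the promoters for astrocytes and Bergmann glia, 17.9% for choroid plexus, 11.1% for meninges, 11.1% for granule neurons and 0 of 20 for spermatids. The full X-box, which can contain the core on each strand, was found in 1.64% and 0.451%, and the forkhead core TGTTTAC in 6.56% and 3.65% of member and of all promoters. A match describes the letters of the window and was not tested as a site. The windows below are stretches of 60 bases, written 5′ to 3′ on the strand of the gene, with the motif or its reverse complement in capitals. They show the motif in the X-box gene, in an ependymal marker, and in genes of the arms, links, tether, central apparatus and doublets whose values follow. These genes were picked by hand, and all except Cfap298 had a log2 fold change below 0. Members with a motif and a change above 0, such as Cfap161, Cfap74 and Tekt4, are not printed, so the windows do not tie a motif to a direction.
Cfap298 (X-box, chr16:90935001-90935060, minus strand): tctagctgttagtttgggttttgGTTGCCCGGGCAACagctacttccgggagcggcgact
Ccdc153 (RFX core, chr9:44240498-44240557, plus strand): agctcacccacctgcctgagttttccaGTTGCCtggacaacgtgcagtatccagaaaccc
Dnah10 (RFX core, chr5:124725065-124725124, plus strand): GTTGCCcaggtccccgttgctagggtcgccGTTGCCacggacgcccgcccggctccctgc
Dnah17 (forkhead core, chr11:118129388-118129447, minus strand): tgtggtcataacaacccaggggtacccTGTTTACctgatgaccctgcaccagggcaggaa
Drc1 (RFX core, chr5:30281355-30281414, plus strand): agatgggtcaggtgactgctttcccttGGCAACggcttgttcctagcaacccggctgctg
Cfap43 (forkhead core, chr19:47837384-47837443, minus strand): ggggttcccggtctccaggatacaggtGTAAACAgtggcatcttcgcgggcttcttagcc
Cfap44 (RFX core, chr16:44394753-44394812, plus strand): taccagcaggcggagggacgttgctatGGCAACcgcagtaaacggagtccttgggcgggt
Cfap46 (RFX core, chr7:139683792-139683851, minus strand): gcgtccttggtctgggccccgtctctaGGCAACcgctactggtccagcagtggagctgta
Tekt1 (RFX core, chr11:72361865-72361924, minus strand): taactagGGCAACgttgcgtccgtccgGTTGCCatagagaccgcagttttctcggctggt

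The regulators came first in the order of the program. Foxj1 had 18.8, 18.9 and 15.5 CPM in low-Mn replicates 1 to 3 and 17.8, 23.1 and 15.7 CPM in normal-Mn replicates 1 to 3. The diets overlapped, with a log2 fold change of -0.09 (95% interval -0.34 to 0.15, edgeR adjusted p = 0.829). Mcidas, a switch of the multiciliated state in dividing precursors, was at most 0.349 CPM and had no count in 3 of the 6 libraries, so that no difference was detectable at this depth. Of 13 regulators of multiciliated cells listed beside them, Foxj1 and Mcidas included, 7 could be tested and 0 were called by edgeR, with 0 at an unadjusted p under 0.05. Rfx3 and Rfx2, named here after their values were seen, had log2 fold changes of -0.03 and -0.08. The p53 relative Trp73, which acts above Foxj1, had one of -0.10 (adjusted p = 0.864). Myb, a factor of early multiciliated differentiation, was above all normal-Mn libraries in all 3 low-Mn libraries at 1.51, 1.58 and 1.91 against 0.842, 1.14 and 1.35 CPM, with an adjusted p of 0.533.

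The ependymal markers outside the axoneme were low in CPM and variable. Ccdc153, a coiled-coil protein used as a marker of ependymal cells, had 3.95, 4.40 and 2.10 CPM on the low-Mn diet and 5.24, 4.57 and 2.55 CPM on the normal-Mn diet. Replicate 3 was the lowest library of each diet, and the diets overlapped (log2 fold change -0.25, 95% interval -0.80 to 0.30, edgeR adjusted p = 0.782). Tmem212, another ependymal marker, had 0.930, 1.51 and 0.740 CPM against 1.17, 2.24 and 1.3 CPM, also with overlap (-0.58, adjusted p = 0.607). Levels of 13 markers of ependyma and other multiciliated cells, 7 of them members, were read as well. Because they overlap the set and are not particular to ependyma, these markers cannot check its ependymal label. All 13 had counts, 12 could be tested, and Sntn, a protein of the ciliary tip in some airway cilia, was too low. Their summed level was 44.3, 47.8 and 38.9 CPM against 53.4, 63.4 and 41.8 CPM, an overlap, and 11 of the 12 were below 0 on the log2 scale. At an unadjusted p under 0.05, 2 of the 12 were lower (16.7%, against 5.58% of all tested genes). For 2 all low-Mn libraries were below all normal-Mn libraries (16.7%, against 8.32% of all tested genes). With 12 genes, these counts are too few to be read as a result about the markers. Transcripts of these markers were thus detected in each library, at a low level.

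The members differed widely in level. Per kb, Cfap36 led with 26.0 CPM per kb, followed by Cfap298, an assembly factor for dynein arms, with 14.3 CPM per kb and Cfap20, a protein of the inner junction of the doublet, with 7.36 CPM per kb. Foxj1 came next with 6.98 CPM per kb, while the ependymal markers Ccdc153 and Tmem212 had 1.87 and 1.84 CPM per kb. Whether the RNA of the genes above them came from ciliated cells was not tested. The dynein heavy chains lay lower on this scale, from 0.0125 CPM per kb for Dnah8 to 1.52 for Dnah11. Cfap36 had 69.8, 68.2 and 74.4 CPM against 71.3, 74.6 and 69.7 CPM, with a log2 fold change of -0.02 and an interval of -0.13 to 0.09. Cfap20 had 32.8, 33.9 and 32.9 CPM against 30.4, 32.9 and 33.7 CPM (0.04, interval -0.10 to 0.18), and Cfap298 differed by 0.05. The intervals of Cfap36 and Cfap20 were the narrowest of the tested members.

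Outer arm dyneins provide most of the force of the beat. Of the 5 heavy chains of this group 4 were tested, and Dnah8 was at most 0.476 CPM. Dnah5, the outer arm chain most often mutated in primary ciliary dyskinesia, had 3.02, 3.09 and 4.26 CPM on the low-Mn diet and 4.26, 4.24 and 4.82 CPM on the normal-Mn diet. Dnah9, its partner in the distal part of the cilium, had 2.79, 2.61 and 3.89 against 3.88, 4.71 and 4.82 CPM. In both genes the third low-Mn library reached the lowest normal-Mn library, and their log2 fold changes were -0.36 (edgeR adjusted p = 0.531) and -0.53 (adjusted p = 0.338). Dnah17, better known from the sperm tail and named after its values were seen, did not overlap, with 1.05, 0.962 and 0.863 against 1.83, 1.52 and 1.79 CPM (-0.83, adjusted p = 0.331). Dnah11 went with none of them. It had 22.7, 21.4 and 22.2 CPM against 23.4, 22.1 and 20.3 CPM, a log2 fold change of 0.01 with an interval of -0.16 to 0.18.

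The inner arm heavy chains, which shape the bend, also differed among themselves. Dnah10 had 1.80, 1.65 and 1.73 CPM on the low-Mn diet and 2.43, 2.81 and 2.93 CPM on the normal-Mn diet. The low-Mn libraries lay close together and below the others, and the log2 fold change was -0.65 with an SE of 0.272 (edgeR adjusted p = 0.327). Dnah12, named after its values were seen, had 1.16, 0.756 and 0.925 against 1.40, 2.24 and 1.63 CPM (-0.88, adjusted p = 0.327). Dnah2 also did not overlap (2.85, 2.06 and 2.78 against 3.32, 3.52 and 3.52 CPM), with a change of -0.42 and an adjusted p of 0.495. Dnah1 overlapped, with low-Mn replicate 1 the lowest library at 0.930 CPM and the rest between 1.67 and 2.39 CPM. Dnah14 had the highest fold change of the 7 inner arm chains at 0.43, with an interval of -0.34 to 1.21. Summed over the 7 chains, the level did not overlap, with at most 28.7 CPM in a low-Mn library and at least 31.1 CPM in a normal-Mn library. Most of this sum was Dnah6, the chain with the most counts, which itself overlapped at 16.7, 15.7 and 18.1 against 19.9, 17.9 and 19.8 CPM (-0.19, edgeR adjusted p = 0.460).

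Dynein assembly factors, which fold and preassemble the arms, mostly overlapped. Dnaaf3 had 1.34, 0.893 and 0.555 CPM against 1.68, 2.05 and 1.41 CPM, without overlap, and a log2 fold change of -0.88 (edgeR adjusted p = 0.357). Dnaaf2 and Dnaaf5, which other cells also express, had changes of -0.09 and 0.10. Dnaaf1 was too low to be tested, at no more than 1.33 CPM. The exons of these 4 genes overlapped another gene or shared sequence over at least 10%, as did those of Cfap298, and their values are uncertain to that extent.

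**Figure D2:**
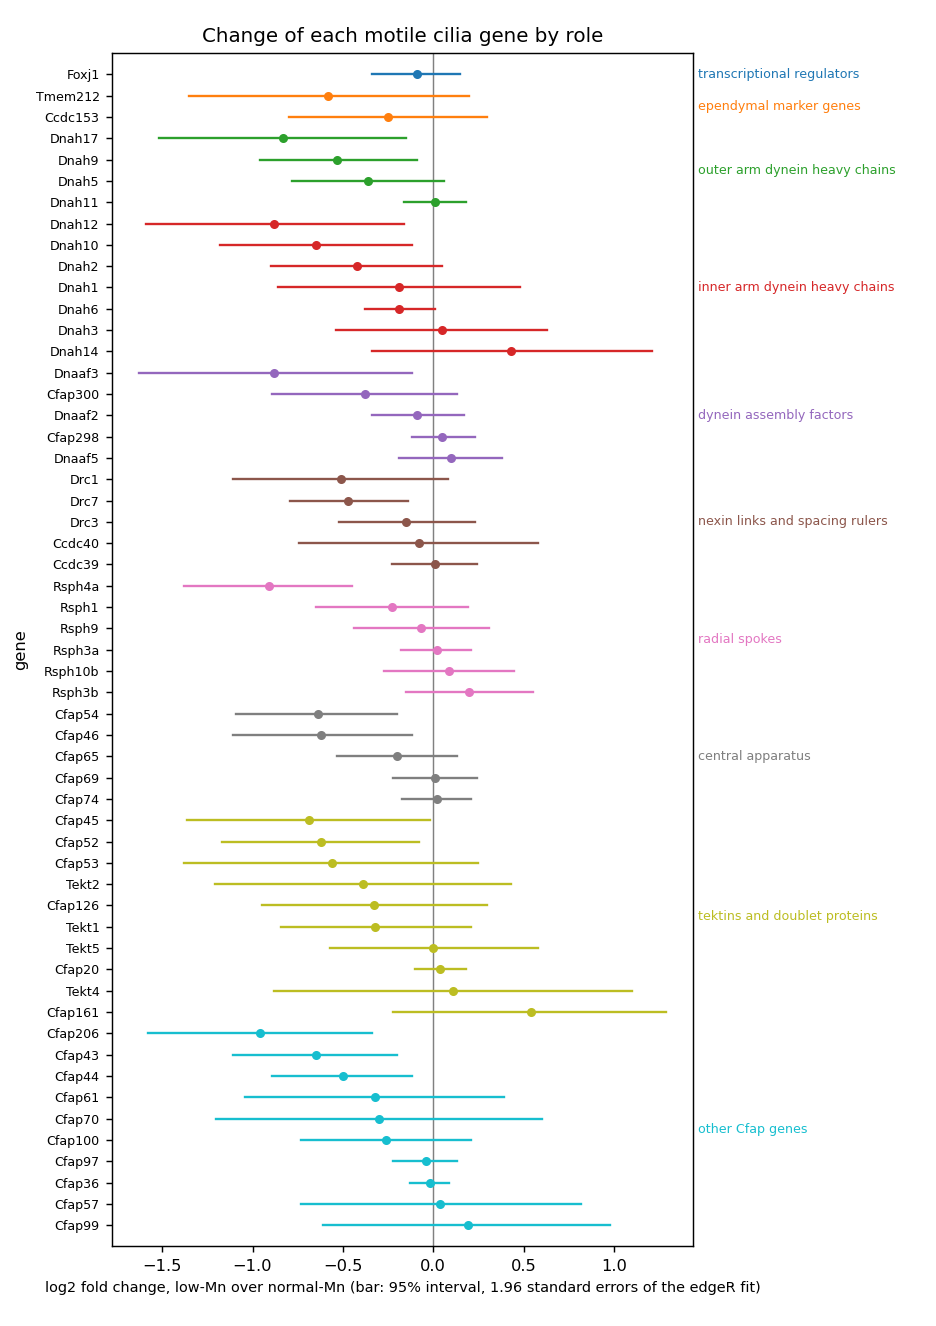
Points are log2 fold changes (low-Mn relative to normal-Mn) of the 55 tested motile cilia genes, coloured by role, and bars are 95% intervals from the edgeR fit. Intervals wholly below 0 belong to 14 genes spread over most roles, no interval lies wholly above 0, and Dnah11, Cfap20 and Cfap36 have short intervals across 0.

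Among the nexin links and the ruler proteins that set their spacing, Drc7 stood lowest in p. It had 9.12, 6.67 and 8.94 CPM on the low-Mn diet and 10.4, 14.5 and 9.32 CPM on the normal-Mn diet. The diets did not overlap, although the highest low-Mn library and the lowest normal-Mn library nearly met, and the log2 fold change was -0.47 with an SE of 0.165 (edgeR adjusted p = 0.238). Drc1 overlapped through normal-Mn replicate 3, with 2.21, 2.41 and 2.59 against 4.31, 4.24 and 1.68 CPM (-0.51, adjusted p = 0.526). Drc3 had a change of -0.15. The rulers Ccdc39 and Ccdc40 work as a pair, and their log2 fold changes were 0.01 and -0.08. The exons of Ccdc39 overlap those of Ttc14 on the opposite strand, and its value is uncertain.

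Radial spokes held the member with the smallest p. Rsph4a, a spoke head protein on chr10:33905111-33916021 (GRCm38, plus strand), had 2.15, 1.86 and 2.71 CPM on the low-Mn diet and 4.02, 4.62 and 4.06 CPM on the normal-Mn diet. Its means were 2.24 ± 0.436 and 4.24 ± 0.331 CPM (SD, n = 3 each), and the highest low-Mn library remained well below the lowest normal-Mn library. The log2 fold change was -0.91 (SE 0.236, interval -1.38 to -0.45), and the edgeR adjusted p was 0.0874. It ranged from 0.0809 to 0.286 when single libraries were left out. The counts behind it were 37, 27 and 44 against 86, 97 and 75. The diets overlapped for other spoke head genes. Rsph1 had 4.71, 3.30 and 4.07 against 4.49, 5.81 and 3.85 CPM (-0.23, adjusted p = 0.739), and Rsph9 had 4.94, 6.67 and 5.06 against 5.38, 7.0 and 4.99 CPM (-0.07). The difference between these genes was not itself tested. The spoke stalk genes Rsph3a and Rsph3b, which share sequence with each other and are uncertain, had changes of 0.02 and 0.20. Rsph6a, a testis spoke head, had 0 counts in all 6 libraries, which allows up to 0.206 CPM in the shallowest of them, for counting error only.

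The central apparatus lies inside the ring of doublets. Cfap54, a large protein of its projections, had 2.38, 2.41 and 3.15 CPM on the low-Mn diet and 4.17, 4.24 and 4.01 CPM on the normal-Mn diet. The normal-Mn libraries were nearly equal and above every low-Mn library, with a log2 fold change of -0.64 (SE 0.225, edgeR adjusted p = 0.233). Cfap46, a further central apparatus protein named after its values were seen, had 1.86, 2.34 and 3.58 against 3.93, 4.14 and 3.85 CPM (-0.62, adjusted p = 0.317). Cfap74 and Cfap69 of the same structure overlapped, with changes of 0.02 and 0.01. Cfap221 was at most 0.325 CPM and was not tested.

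**Figure D3:**
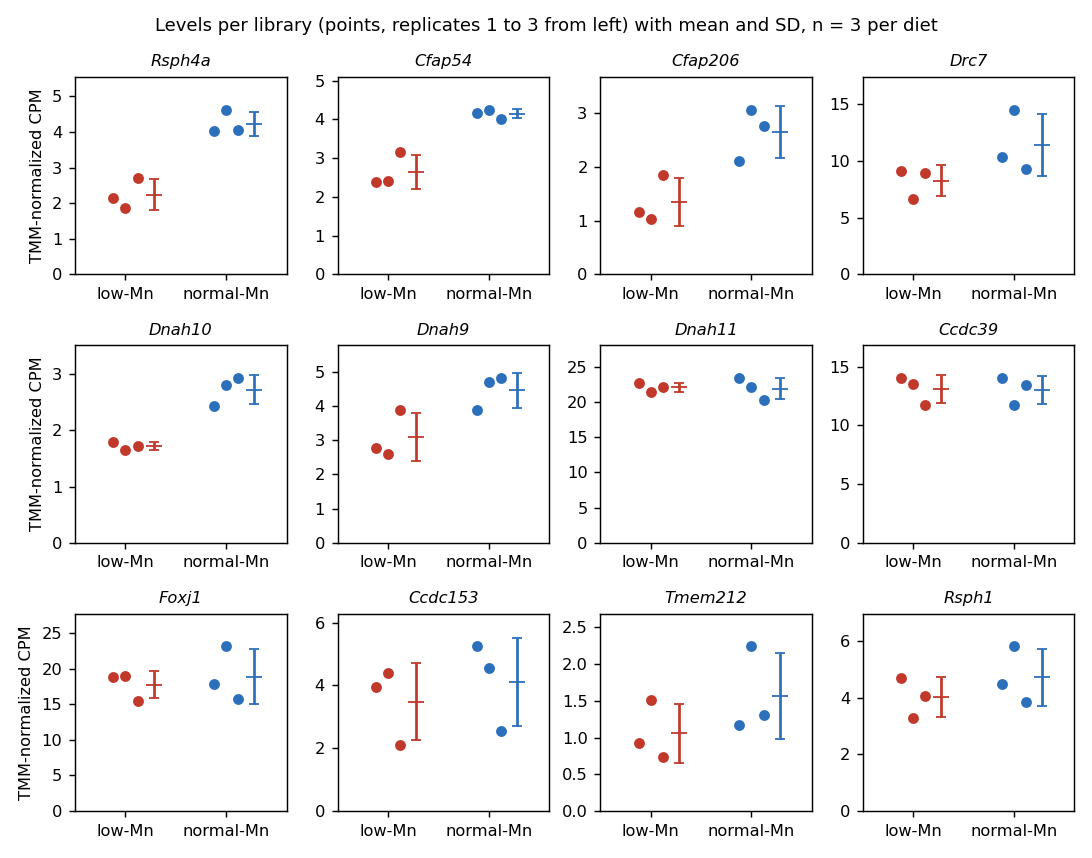
TMM-normalized CPM of 12 motile cilia genes in each library (points, with replicates 1 to 3 from left to right) and the mean with SD of the 3 libraries per diet, on axes that start at 0. The diets are apart for Rsph4a, Cfap54, Cfap206, Drc7 and Dnah10, just meet for Dnah9, and overlap for Dnah11, Ccdc39, Foxj1, Ccdc153, Tmem212 and Rsph1.

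Tektins and other proteins that line the inside of the doublets gave a mixed account. Cfap52 had 1.80, 2.20 and 2.28 CPM on the low-Mn diet and 2.71, 4.38 and 2.55 CPM on the normal-Mn diet, and Cfap45 had 1.34, 0.962 and 1.17 against 1.45, 2.29 and 1.90 CPM. Neither overlapped, with log2 fold changes of -0.62 (edgeR adjusted p = 0.368) and -0.69 (adjusted p = 0.430). Tekt1 also did not overlap but differed less, with 2.32, 2.27 and 1.73 against 2.62, 2.86 and 2.38 CPM (-0.32, adjusted p = 0.698). Tekt2, which is uncertain because of an overlapping gene, was between 0.550 and 0.936 CPM. Tekt4 had a change of 0.11 and Cfap126 one of -0.33, both with overlap. Cfap161 had the highest fold change of all tested members at 0.54, which came from low-Mn replicate 2 at 2.82 CPM beside 1.05 to 1.57 CPM in the other libraries (adjusted p = 0.632).

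Of the remaining Cfap genes, Cfap206 had the lowest fold change of all tested members. It had 1.16, 1.03 and 1.85 CPM on the low-Mn diet and 2.11, 3.05 and 2.76 CPM on the normal-Mn diet, without overlap, and the log2 fold change was -0.96 (SE 0.314, interval -1.58 to -0.34, edgeR adjusted p = 0.200). Cfap43 and Cfap44 form the tether that anchors an inner dynein to the doublet. Cfap43 had 3.02, 2.41 and 3.33 against 3.98, 5.86 and 3.96 CPM (-0.65, adjusted p = 0.241), and Cfap44 had 4.18, 4.47 and 6.35 against 6.65, 8.76 and 5.85 CPM (-0.50, adjusted p = 0.299). The log2 fold changes of the pair were close, with overlap for Cfap44 through low-Mn replicate 3. The 12 members not tested were at most 0.625 CPM on average. Among them Cfap77 had counts of 5, 6 and 7 on the low-Mn diet and 15, 14 and 10 on the normal-Mn diet. Cfap299, which is uncertain because of an overlapping gene, had counts of 1, 2 and 2 against 5, 10 and 6. Neither overlapped, but the share of all untested genes that did so was not computed, and these counts are too low to be read as a result.

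Members of low and high count were then described apart, with no test of the split. The 20 members that averaged at least 100 counts were split evenly, 10 above and 10 below 0, with a median log2 fold change of -0.01, and their summed level overlapped at 335, 332 and 336 CPM against 340, 357 and 332 CPM. Of these, 2 were lower at an unadjusted p under 0.05, Drc7 and Cfap44, where 6.34% of all tested genes of at least 100 counts were. The 35 tested members under 100 counts had 28 below 0 and a median of -0.38, and 11 of them were lower at an unadjusted p under 0.05. Their summed level was 66.4, 65.1 and 67.8 CPM on the low-Mn diet and 85.2, 98.6 and 81.1 CPM on the normal-Mn diet, a ratio of 0.752. Among all 4438 tested genes under 100 counts, the median was -0.04, and 159 were lower and 126 higher at an unadjusted p under 0.05. Low-Mn libraries were also the shallower ones, and the part of depth in the result was not tested. Over all 67 members, tested or not, the sum was 404, 399 and 407 CPM against 428, 461 and 417 CPM, which did not overlap (ratio 0.927). This sum is set largely by Cfap36 and a few more genes of high CPM.

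**Figure D4:**
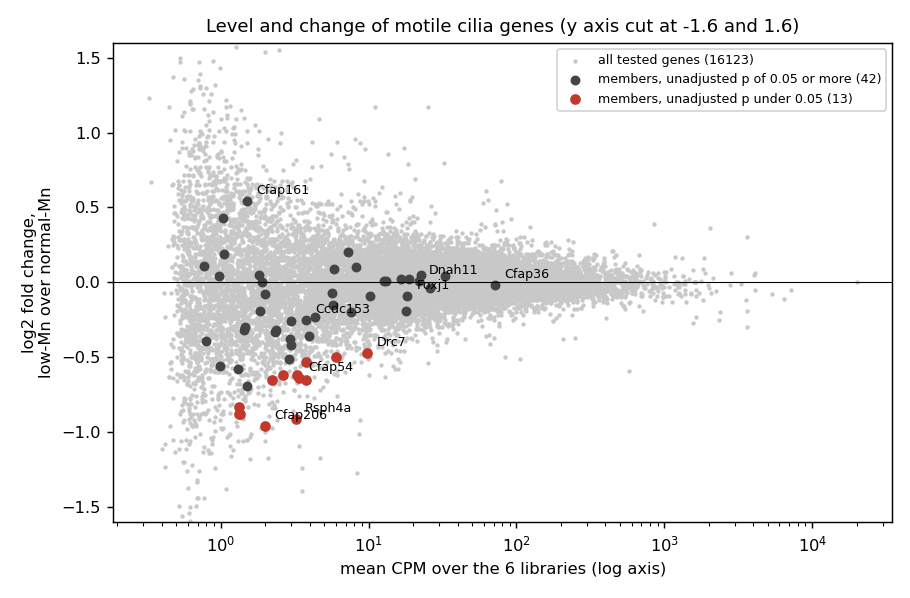
The x axis gives the mean CPM over the 6 libraries (log axis) and the y axis the log2 fold change of low-Mn against normal-Mn, with all 16123 tested genes in grey, members at an unadjusted p under 0.05 in red (13) and other members in dark grey (42). The red points lie on the left below 0, and members above about 10 CPM lie near 0.

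Normal-Mn replicate 2 stood out within its diet, and not for the members alone. Over all genes with enough counts, its scatter against the other normal-Mn libraries was 7.6 and 6.74 (chi-square per degree of freedom). All other pairs within a diet had from 3.63 to 4. Normal-Mn replicate 2 was the highest library for 24 of the 55 tested members, while it was the highest for 19.5% of all tested genes. Without it, the median log2 fold change of the members was -0.14, and 5 were lower at an unadjusted p under 0.05. Without low-Mn replicate 2, the median was -0.23, and 4 were lower at that level. Without any other library, from 9 to 12 were. In all of these fits 0 members were called by edgeR and 0 were higher at an unadjusted p under 0.05, and the 13 members named by the unadjusted test kept a log2 fold change below 0 throughout.

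Other genes of motile cilia, which the name rule did not take, were listed as a comparison. Of 77 names 76 were in the table and 65 were tested. The edgeR test called 0 of them, 7 were lower (10.8%, against 5.58% of all tested genes) and 0 higher at an unadjusted p under 0.05, and the median log2 fold change was -0.16. All low-Mn libraries were below all normal-Mn libraries for 6 of them, or 9.23%, near the 8.32% of all tested genes, and above for 2, the dynein assembly factor Spag1 and Armc3. Ak7, an adenylate kinase of the axoneme, had 2.5, 3.44 and 3.58 CPM on the low-Mn diet and 4.91, 7.0 and 4.17 CPM on the normal-Mn diet (-0.77, adjusted p = 0.154). Dnaic2, an intermediate chain of the outer arm, had 4.18, 6.12 and 4.32 against 6.04, 7.85 and 7.97 CPM, where low-Mn replicate 2 overlapped (-0.59, adjusted p = 0.189). Ttc25, a docking factor for the outer arm, and Spag6l, a central apparatus protein, had changes of -1.05 and -0.73, with adjusted p-values of 0.262 and 0.299. The summed level of the 76 genes overlapped, at 337, 350 and 332 CPM against 358, 375 and 349 CPM.

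Genes for transport along cilia, which neurons and glia use for their primary cilia too, had a median near 0. Of 35 such genes, all tested, 0 were called by edgeR, and the median log2 fold change was 0.01, with 21 above and 14 below 0. At an unadjusted p under 0.05, 0 were lower and 4 were higher, where 5.58% and 6.54% of all tested genes were. All low-Mn libraries were above all normal-Mn libraries for 4 of these genes and below for 2. These counts were near the shares over all tested genes, 8.79% above and 8.32% below. Their summed level was narrowly higher with low Mn, at 1270, 1270 and 1260 against 1260, 1230 and 1230 CPM, without overlap before rounding. Kif3a, a motor subunit that carries cargo to the tip, had 101, 100 and 101 CPM on the low-Mn diet and 90.4, 83.9 and 90.8 CPM on the normal-Mn diet (0.18, adjusted p = 0.112). Ift80 and Bbs9 likewise did not overlap, with changes of 0.19 (adjusted p = 0.246) and 0.32 (adjusted p = 0.262), and Ttc21b had 0.25 (adjusted p = 0.394). Sperm genes share parts with motile cilia, and 11 of 16 listed spermatid genes had no count in any library, the protamines Prm1 and Prm2 among them. Of the remaining 5, 2 were tested, Odf2 (0.14, adjusted p = 0.233) and Zpbp (-0.28, adjusted p = 0.797).

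Markers of other cells at the ventricle and brain surface also had log2 fold changes mostly below 0. Choroid plexus epithelium, which secretes the cerebrospinal fluid, lies in the same ventricle, and 26 of its 26 markers were tested. Of these, 25 were below 0, 20 were lower at an unadjusted p under 0.05 and 4 fell (Kl, Ace, Mfrp and Sostdc1), with a median of -0.27. The 20 were 76.9% of the markers, against 5.58% of all tested genes. The lists of cell markers were drawn up with earlier results of these data known. They hold Kl, Ace, Fn1, Igf2 and Slc4a4, which the paper gives among its most downregulated genes, so the shares of these lists are no independent result. All low-Mn libraries were below all normal-Mn libraries for 16 of the 26 (61.5%), where 8.32% of all tested genes were. The summed level of the 26 markers was 5180, 4270 and 4660 CPM against 5550, 5990 and 5030 CPM, which overlapped. Its defining markers were not at 0: Ttr had 2010 to 2510 CPM on the low-Mn diet and 2300 to 2780 CPM on the normal-Mn diet (-0.20, edgeR adjusted p = 0.221), and Folr1 and Kcnj13 had changes of -0.24 and -0.18. Of 20 markers of meninges and fibroblasts, all tested, 18 were below 0 and 7 were lower at an unadjusted p under 0.05 (35.0%). All low-Mn libraries were below all normal-Mn libraries for 7 of these markers (35.0%). Among the 20, 2 fell (Fn1 at -0.41 and Igf2 at -0.26), and the sums of the list were 455 to 555 against 562 to 632 CPM. Of these 6 calls, only that of Kl held without any 1 library (adjusted p up to 0.0126 from edgeR), and without low-Mn replicate 2 the other 5 had adjusted p-values from 0.0695 for Fn1 to 0.172 for Igf2. Slc13a4 and Col1a2 of this list had changes of -0.31 and -0.25. Genes on the same strand overlapped 36.7% of the exons of Mfrp and 62.8% of those of Igf2. For Kcnj13, a gene on the opposite strand overlapped 49.1%. The values of Mfrp, Igf2 and Kcnj13 are uncertain to that extent. Of 20 astrocyte and Bergmann glia markers, 17 were below 0, 0 were called by edgeR and 7 were lower at an unadjusted p under 0.05. The 7 were 35.0% of the list, against 5.58% of all tested genes. All low-Mn libraries were below all normal-Mn libraries for 4 of the 20, where 8.32% of all tested genes were. The sums of this list were 8440 to 8770 against 8860 to 9220 CPM. Its 4 markers with the smallest p were Slc4a4 (-0.18), S100b (-0.16), Sox9 (-0.21) and Fabp7 (-0.25). Granule neuron markers had a median of 0.02 over 16 genes and sums that overlapped, with 0 called, 0 lower and 1 higher (Neurod1, 0.18) at an unadjusted p under 0.05. Zic2, Reln and Calb2 followed in p, with changes of -0.09, 0.10 and -0.11. The normal-Mn replicate 2 library had the highest sum for the cilia genes, choroid plexus, meninges and astrocytes alike, and low-Mn replicate 2 the lowest for cilia genes under 100 counts, choroid plexus and meninges. The part of these cell types in the result for cilia genes was not tested.

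**Figure D5:**
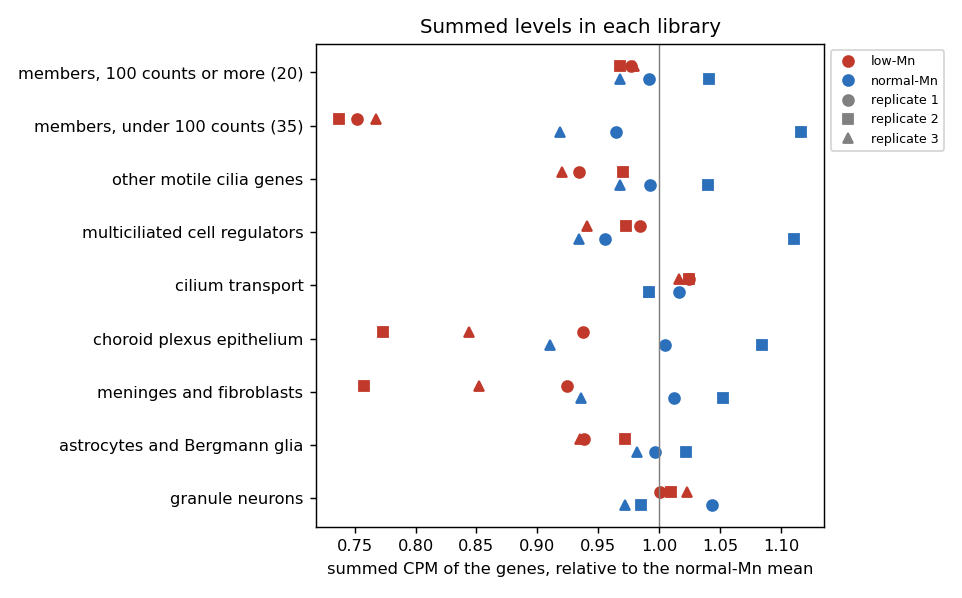
Summed CPM of each gene group in each library, divided by the mean of the 3 normal-Mn libraries, with red for low-Mn, blue for normal-Mn and the marker shape for the replicate number. The 35 tested members under 100 counts lie apart by diet, as do the meninges and astrocyte markers, all lower with low Mn. Cilium transport genes also lie apart, narrowly higher with low Mn. The 20 members of more counts, the regulators, the other motile cilia genes, choroid plexus and granule neuron markers overlap.

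Members with a motif in the promoter windows printed above or in the same scan had log2 fold changes on both sides of 0. Cfap298, with the full X-box, differed by 0.05 on the log2 scale between the diets, while Cfap46, Dnah10 and Cfap44 with the RFX core had changes of -0.62, -0.65 and -0.50. Cfap161 also carried the RFX core and had the highest fold change of the set. Cfap43 and Dnah17 carried the forkhead core, with changes of -0.65 and -0.83, and so did Cfap20 at 0.04. Members with a promoter but no motif also lay on both sides of 0. Among them Cfap206, Dnah12 and Drc7 had changes of -0.96, -0.88 and -0.47, and Dnah14 and Dnah11 had changes of 0.43 and 0.01. No promoter was available for Rsph4a and Cfap54. Whether a motif goes with a change was not tested.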

How the data were processed

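Cerebellar poly(A) RNA of 3 low-Mn and 3 normal-Mn mice was sequenced on the NovaSeq platform. The authors mapped reads with STAR, and FastQC, RSEM, DESeq2 and the build mm10 are named in the notes of the submitters on processing. Versions are not given in the sources read here. What the authors deposited are RSEM expected counts for each gene, without normalization. The normal-Mn columns carry dose and replicate, while the other 3 columns carry a number alone. These were taken as the low-Mn libraries by elimination, and their number as the replicate number, so the direction of every difference rests on that assignment.

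Symbols and positions came from GENCODE M21 (53620 of 53715 genes), and 92 spike-in entries, all at 0, were left out. Counts were rounded, filtered with filterByExpr (minimum count 10, minimum total 15), scaled by TMM and tested with glmQLFit and glmQLFTest of edgeR 4.0.16 (R 4.3.3) over all 6 libraries. P-values of 16123 genes were adjusted by Benjamini-Hochberg, and 0.05 was the threshold. Intervals are 1.96 standard errors on each side, a nominal 95% that is somewhat narrower than the quasi-likelihood test implies. Alternatives used limma 3.58.1 voom, DESeq2 1.42.0, other scaling and filters, unrounded counts, the replicate number as a block and libraries left out. The fit was tested on simulated counts. A gene was called uncertain where another gene overlapped its exons, or shared its 50-mers, over at least 10%, which held for 13 members. Whether counting used the strand is not stated in the paper or labels. Members and lists were chosen with earlier results of these data known. Genes named were a set fixed by role, the 4 smallest p in each direction, the 3 highest levels per kb, and up to 4 genes per list with the smallest p. Cfap46, Cfap69, Cfap74, Cfap77, Cfap221, Cfap299, Dnah6, Dnah8, Dnah12, Dnah17, Rsph6a, Rfx2, Rfx3, Spag1, Armc3, Sntn, Prm1 and Prm2 were named after their values were seen.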

Additional observations from a re-analysis of the deposited data

How the results depend on the processing

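Over all tested genes, 96 passed in the main comparison, 424 without a filter on low counts, 63 with limma-voom and from 37 to 93 with 1 library left out. Without a filter 2 of the motile cilia members passed (Rsph4a, adjusted p = 0.0176, and Drc7, adjusted p = 0.0482, both from edgeR), as did 1 of the other motile cilia genes (Ak7, adjusted p = 0.0233). None of the members passed under any further alternative. The median log2 fold change of the members was -0.01 with the stricter filter, which kept 20 of them, and ranged from -0.3 to -0.14 with 1 library left out, being nearest 0 without normal-Mn replicate 2.

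Some uncalled genes near 0 changed sign. Ccdc39 was at -0.01 with upper quartile scaling and Ccdc40 at 0.01 with limma-voom. With libraries left out in turn, the log2 fold change ranged from -0.5 to 0.01 for Ccdc153, -0.07 to 0.08 for Ccdc39, -0.31 to 0.4 for Ccdc40, -0.06 to 0.01 for Cfap36, -0.4 to 0.12 for Dnah1, -0.04 to 0.06 for Dnah11, -0.28 to 0.06 for Drc3, -0.21 to 0.08 for Foxj1, -0.04 to 0.06 for Rsph3a, -0.04 to 0.36 for Rsph3b, -0.21 to 0.09 for Rsph9, -0.31 to 0.65 for Tekt4 and -0.2 to 0.01 for Trp73. The cause was not tested.

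Same-numbered libraries of the diets did not deviate together (r = 0.0297, -0.0238 and 0.0361 across genes), so the numbers give no pairing. With the replicate number as a block 128 genes passed and 0 members did, 13 members were lower at an unadjusted p under 0.05, and the median was -0.22.

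Of the 55 tested members, 35 averaged under 100 counts per library, and 12 members had too few counts to be tested.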
